A study of Drosophila melanogaster with 2 samples.

Results

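Translation initiation, elongation and release factors are the proteins that help the ribosome start on a messenger RNA, extend the peptide chain and let it go at a stop codon. The genes described here are the 54 protein-coding genes whose symbol begins with eIF (44 genes, initiation), eEF (8 genes, elongation) or eRF (2 genes, release), of 13945 protein-coding genes on the assembled chromosome arms. They were picked by symbol, and the choice of this gene group was made with earlier results of these data known. The measurement was chromatin immunoprecipitation followed by sequencing (ChIP-seq) of Mes4 (Mesoderm-expressed 4, not to be mistaken for Mes-4) carrying green fluorescent protein (GFP) at its C terminus, pulled down through the tag. Both samples, biological replicates 3 and 4, were whole Drosophila melanogaster embryos of 0 to 16 h, males and females together, from 1 stable transgenic line, with chromatin sonicated to 200 to 800 bp. They form 1 group, so no conditions were compared, and all cell types and stages of that time span were mixed. The promoter that drives the fusion is not given in the sources used here, nor is the state of the native Mes4 gene.

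Initiation begins when the small ribosomal subunit, held ready by eIF1, eIF1A, eIF3 and eIF5, receives the initiator tRNA from eIF2 and is brought to the capped end of the message by the eIF4 factors. The large subunit then joins with the help of eIF5B. During elongation eEF1 delivers each aminoacyl-tRNA and eEF2 moves the ribosome on by a codon, until eRF1 and eRF3 release the finished chain. In flies, many genes that every growing cell needs start at promoters with the DNA replication-related element (DRE, the palindrome TATCGATA), while ribosomal protein genes are known for a polypyrimidine start called the TCT initiator.

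Of the 19 strong peaks at the starts of these genes, 6 held a DRE within 100 bp of their highest point (31.6%). Over all protein-coding genes, 8.77% of 1493 such start peaks did. The elongation factor eEF1gamma, the release factor eRF1 and otherwise initiation factors made up these 6, whose stretches are shown first. Each is given 5′ to 3′ on the strand of the factor gene, with the DRE in capitals, in dm6 coordinates from the Release 6 RefSeq sequence.
eEF1gamma, chr3R:29220101-29220168, plus strand: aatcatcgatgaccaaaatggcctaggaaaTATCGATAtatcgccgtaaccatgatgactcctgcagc
eIF3a, chr3R:4433896-4433963, minus strand: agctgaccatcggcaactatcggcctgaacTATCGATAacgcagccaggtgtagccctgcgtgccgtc
eRF1, chr3L:20348300-20348367, plus strand: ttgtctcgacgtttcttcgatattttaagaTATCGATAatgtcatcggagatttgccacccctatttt
eIF1 and RpL28, chr3L:3222961-3223060, plus strand: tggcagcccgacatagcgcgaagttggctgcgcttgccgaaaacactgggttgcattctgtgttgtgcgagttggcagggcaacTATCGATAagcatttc
eIF4A, chr2L:5981682-5981749, plus strand: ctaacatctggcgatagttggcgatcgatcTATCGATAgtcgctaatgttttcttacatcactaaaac
eIF2A, chr3L:21824865-21824894, plus strand: ttactatcgctTATCGATAcaccgcgtaca
The distance from the middle of the DRE to the peak summit was 13 bp for eEF1gamma, 13 bp for eIF3a, 20 bp for eRF1, 39 bp for the peak between eIF1 and RpL28, 47 bp for eIF4A and 64 bp for eIF2A. The same letters also stood at starts without a peak of the strongest list, of which 4 are shown for comparison, again with the DRE in capitals.
eIF2alpha, chrX:16446969-16447036, minus strand: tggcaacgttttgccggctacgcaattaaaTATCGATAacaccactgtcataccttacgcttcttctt
eIF2gamma, chr3R:15263498-15263565, minus strand: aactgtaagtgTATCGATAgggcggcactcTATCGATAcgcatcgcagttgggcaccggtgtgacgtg
eIF3f1, chr3R:4714153-4714220, minus strand: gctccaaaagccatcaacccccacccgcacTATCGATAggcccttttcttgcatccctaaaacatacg
eIF4B, chr3L:27858253-27858320, minus strand: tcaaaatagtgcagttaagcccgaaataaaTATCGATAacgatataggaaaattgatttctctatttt
The eIF2gamma stretch holds a pair of DRE copies 32 and 51 bp from a weaker summit, and eIF4B had no peak at its start in any list. At eIF2alpha and eIF3f1 the DRE lay 37 and 279 bp from a weaker summit. Among starts not shown, the distance to a weaker summit was 5 bp at eIF2Bbeta, 8 bp at eIF4E6, 165 bp at eEF1delta and 399 bp at eIF3l. At eIF6, which had a strong peak, a DRE lay 115 bp from the summit. A TCT initiator match lay beside a start of 4 of the 19 factors with optimal peaks (21.1%). The share was 8.81% for all protein-coding genes with an optimal peak. The nearest match lay 12 bp from the summit at eEF2, 59 bp at eEF5, 102 bp at eIF4A and 295 bp at eIF3m. At eEF5 and eIF3m it stood at a TSS of the gene other than the one nearest the summit. Of these 4 factors eEF2 and eIF4A are shown, with the match in capitals.
eEF2, chr2L:21682096-21682125, minus strand: gcagcgcctcgctCTTTCctgtcgaaacgc
eIF4A, chr2L:5981738-5981793, plus strand: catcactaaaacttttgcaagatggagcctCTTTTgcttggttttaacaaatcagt
All stretches were chosen after the values were seen, and a match describes letters and not a binding site.

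A gene was scored by the strongest peak whose summit, its highest point, lay within 500 bp of one of the gene's transcription start sites (TSSs). Of the 54 translation factor genes, 19 had a peak of the authors' optimal list at a start (35.2%, 95% Wilson interval 23.8 to 48.5), against 15.1% of all protein-coding genes (2101 of 13945). The optimal list holds 3207 peaks and comes from the irreproducible discovery rate (IDR) procedure, which weighs agreement between replicates. These are the strongest 3207 of the 30000 peaks in the relaxed list pooled from both replicates, ranked by the authors' signal value, which runs from 85.5 to 1678 in the optimal list on a scale that is not stated. In the strongest 3207 peaks of replicate 3 alone, 18 factors had a peak at a start, against 14.9% of all genes. In those of replicate 4 alone it was 17, against 14.7% of all genes. Both replicates alone held 16 of the 19 among their strongest 3207 peaks (84.2%), against 75.0% for all genes with an optimal peak at a start. A peak of any strength in the pooled list lay at a start of 40 factors, beside 54.6% of all genes. No list held a peak at a start of 9 of the 54 factors, beside 5094 of the 13945 protein-coding genes. Depth is unknown from these files, and the intervals cover only the counting of genes, which are not replicates. Both replicates were called against the same control, no sample from an untagged line was analysed here, and its part in these peaks was not tested.

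**Figure D1:**
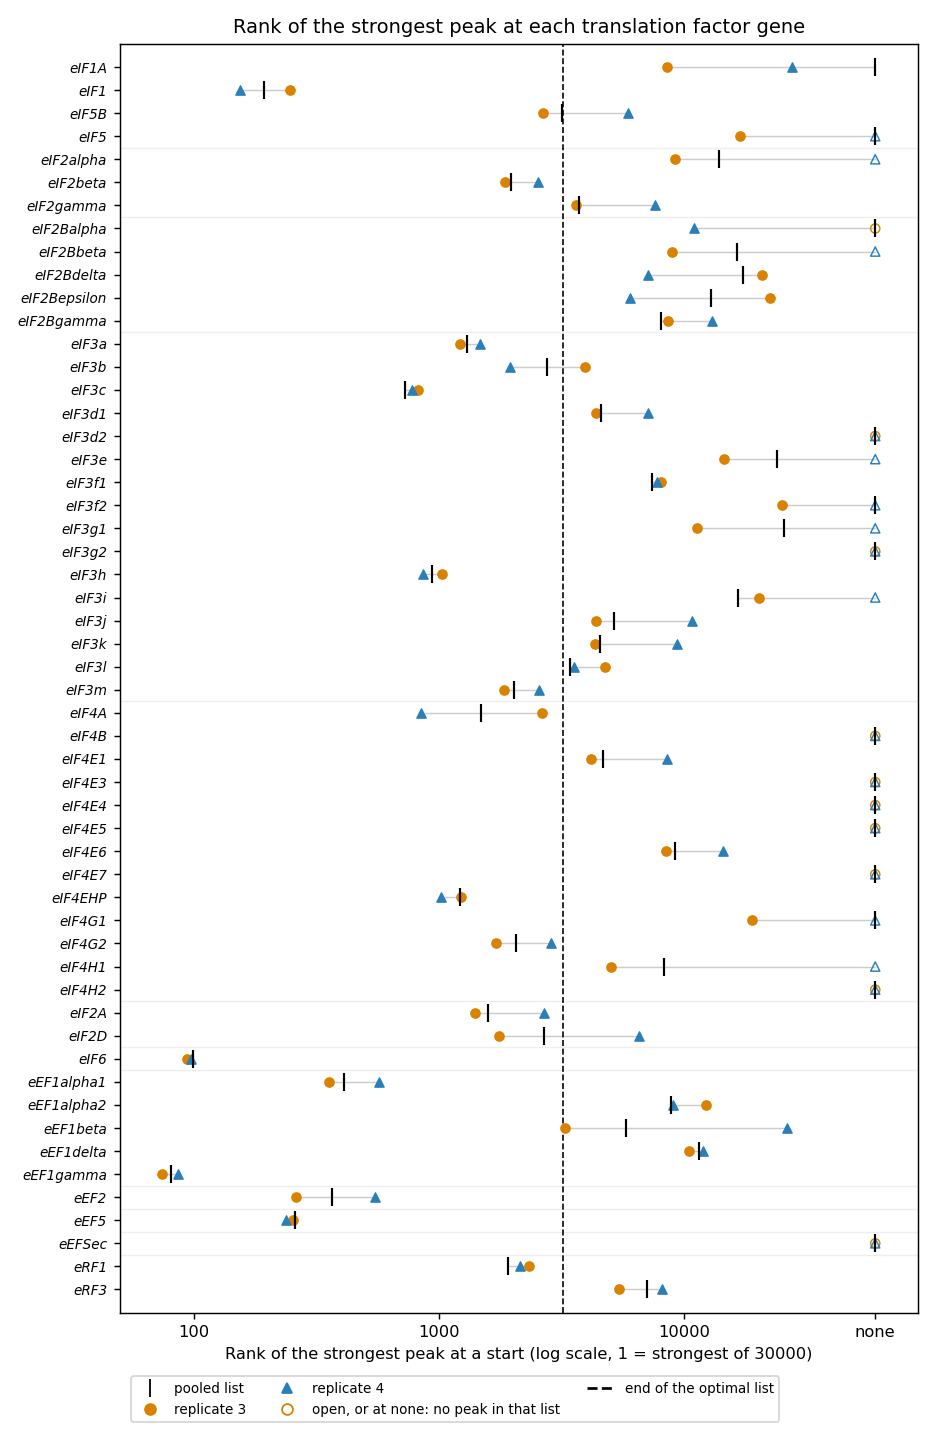
Rank of the strongest peak within 500 bp of a TSS of each of the 54 translation factor genes, on a log axis where 1 is the strongest of 30000 peaks. Black ticks are the pooled list, circles replicate 3 and triangles replicate 4; marks at "none" had no peak in that list, and the dashed line is rank 3207, the end of the optimal list. The leading genes, such as eEF1gamma and eIF6, have nearly the same rank in both replicates, while the weaker ones spread more.

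Of the single-gene factors that act on start codon choice (eIF1, eIF1A and eIF5) or on the joining of the subunits (eIF5B), eIF1 and eIF5B had optimal peaks and eIF1A and eIF5 did not. For eIF1, which guards start codon choice, the peak (chr3L:3222897-3223140) had a signal of 364 in the pooled list, 197 in replicate 3 and 165 in replicate 4, at ranks 194, 248 and 154. Its summit lay 332 bp upstream of the eIF1 TSS and 49 bp from the TSS of RpL28, a large subunit ribosomal protein gene that starts on the other strand 381 bp away. The peak therefore sat at RpL28 rather than at eIF1 by distance, and within 250 bp eIF1 had none. The subunit joining factor eIF5B had a signal of 86.1, with 59.0 and 26.5 in replicates 3 and 4, at ranks 3171, 2651 and 5901. It was the weakest of the 19 and the last of these genes before the end of the optimal list, and replicate 4 alone did not place it among its strongest 3207. The gene for eIF1A, which works with eIF1 on the small subunit, had weak peaks at rank 8461 in replicate 3 and 27371 in replicate 4 and none in the pooled list. For eIF5, which makes eIF2 hydrolyse its GTP, only replicate 3 listed a peak, at rank 16912.

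The genes of eIF2, the carrier of the initiator tRNA, and of eIF2B, which recharges it with GTP, held 1 optimal peak among 8 (12.5%), near the 15.1% of all protein-coding genes. That was eIF2beta, with a signal of 114 pooled, 71.4 in replicate 3 and 41.7 in replicate 4, at ranks 1975, 1855 and 2525 and 293 bp upstream of its TSS. The subunit gene eIF2gamma stood just outside the optimal list at rank 3725 (signal 78.2), with ranks 3611 and 7595 in the replicates. Its summit lay 41 bp from a start it shares with Su(var)3-9, a heterochromatin histone methyltransferase gene, and Set. Rank 13823 belonged to eIF2alpha, the subunit whose phosphorylation slows initiation under stress, and replicate 4 listed no peak there. None of the 5 eIF2B subunit genes had an optimal peak. Their pooled ranks ran from 8041 for eIF2Bgamma to 17267 for eIF2Bdelta, and eIF2Balpha was listed in replicate 4 alone, at rank 10935. The fourth strongest peak of the whole optimal list lay 669 bp from the eIF2Bbeta TSS, outside the 500 bp limit and 50 bp from the TSS of Ugalt, a sugar-nucleotide transporter gene.

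The eIF3 complex, the scaffold of the small subunit during initiation, is encoded by 16 genes here. An optimal peak lay at 5 of them (31.25%, Wilson interval 14.2 to 55.6), beside 15.1% of all protein-coding genes. The strongest was at eIF3c, with a signal of 200 pooled, 113 in replicate 3 and 79.5 in replicate 4, at ranks 729, 822 and 774 and 29 bp upstream of the TSS. Next came eIF3h, at ranks 939, 1028 and 865 (signals 175, 99.5 and 75.0), with its summit 278 bp downstream of one TSS and 341 bp from a TSS of senju. These 2 genes had close ranks in both replicates. The core subunit gene eIF3a stood at ranks 1301, 1224 and 1466 (144, 89.5 and 56.3), at a start it shares with CG1074. The gene eIF3m stood at ranks 2028, 1847 and 2546 (112, 71.7 and 41.5), with CG8323 starting 133 bp from the summit. At eIF3b the ranks were 2766, 3924 and 1957 (93.9, 46.6 and 48.0), so replicate 3 alone placed it outside its strongest 3207. The eIF3b summit lay 450 bp upstream, the farthest of the 19, and 103 bp from Patronin, a gene for a microtubule minus-end protein. The nearest member beyond the end of the optimal list was eIF3l at rank 3427 (signal 82.0), 413 bp upstream of its own TSS and 9 bp from that of Nrx-IV, a septate junction gene. The other listed eIF3 genes had pooled ranks between 4539 for eIF3k and 25462 for eIF3g1. Of the remaining 3, eIF3f2 was listed in replicate 3 alone at rank 25091, and eIF3d2 and eIF3g2 had no peak.

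Of the 13 eIF4 genes, which serve the capped end of the message, eIF4A, eIF4EHP and eIF4G2 had optimal peaks. This was 23.1% (Wilson interval 8.18 to 50.3), and the 15.1% of all protein-coding genes lies inside that interval. The RNA helicase gene eIF4A had a signal of 134 pooled, 59.3 in replicate 3 and 76.0 in replicate 4, at ranks 1490, 2631 and 843. It was stronger in the order of replicate 4 than of replicate 3, and its summit lay 96 bp upstream. The gene eIF4EHP, whose product binds the cap and represses translation, stood at ranks 1216, 1232 and 1021 (150, 89.2 and 68.6). Its summit was 295 bp upstream and 81 bp from the TSS of CG18428. The scaffold gene eIF4G2, known for its role in male meiosis in the fly, stood at ranks 2062, 1714 and 2858 (111, 74.5 and 39.0), 45 bp from a TSS of its own and 45 bp from that of CG33111. The cap-binding protein gene eIF4E1 had pooled rank 4673 and ranks 4156 and 8501 in the replicates. Of the 6 genes eIF4E1 and eIF4E3 to eIF4E7, 4 had no peak in any list, beside 5094 of all 13945 protein-coding genes. The gene eIF4E6 stood at rank 9186, 16 bp from the start of CG1951. The helicase cofactor genes eIF4B and eIF4H2 had no peak and eIF4H1 had rank 8284, while the main scaffold gene eIF4G1 was listed only in replicate 3, at rank 18889.

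Outside these complexes, eIF6, which keeps the large subunit from pairing too early and also serves in its assembly, had the strongest peak of all initiation factors. Its signal was 490 pooled, 297 in replicate 3 and 202 in replicate 4, at ranks 99, 94 and 98, so that the replicates placed it nearly alike. The peak (chr2R:23850270-23850549) had its summit 122 bp upstream of eIF6 and 93 bp from the start of the antisense RNA gene asRNA:CR45928, and ChIP-seq cannot assign it to a strand. Both genes for noncanonical initiator tRNA carriers had optimal peaks. At eIF2A the ranks were 1586, 1402 and 2671 (signals 129, 83.3 and 40.5), 22 bp upstream of a TSS that is not its most 5′ one. At eIF2D they were 2684, 1758 and 6537 (95.6, 73.5 and 25.2), so replicate 4 alone did not place eIF2D among its strongest 3207, and the summits of the replicates lay 144 bp apart, the most among the 19.

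Of the 8 elongation factor genes, 4 had strong peaks directly at a start, and the others had weak peaks or none. The strongest of all translation factors was eEF1gamma, a subunit of the exchange factor that recharges eEF1alpha (chr3R:29219996-29220301). Its signal was 526 pooled, 325 in replicate 3 and 207 in replicate 4, at ranks 81, 74 and 86. At eEF5, formerly named eIF5A and known for its hypusine residue, the ranks were 260, 255 and 237 (signals 323, 193 and 136; chr2R:24057683-24057914). The translocase gene eEF2 stood at ranks 366, 262 and 549 (282, 190 and 94.8; chr2L:21682088-21682222). The tRNA carrier gene eEF1alpha1 stood at ranks 412, 358 and 570 (269, 169 and 93.1; chr2R:11891954-11892234), at a TSS that is not its most 5′ one. These 4 summits lay 25, 3, 6 and 25 bp from the gene's nearest TSS, which at eEF2 too was not the most 5′ one. No other annotated gene started within 500 bp of these summits, and all 4 were among the strongest 801 peaks. The remaining genes of the eEF1 complex were eEF1beta at pooled rank 5801 (3266 and 26189 in the replicates), eEF1alpha2 at 8789 (12309 and 9010) and eEF1delta at 11450 (10414 and 11909). The selenocysteine factor gene eEFSec had no peak. An optimal peak of rank 3038 lay 908 bp upstream of eEF1beta, nearer to Psi at 400 bp.

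Of the release factors, eRF1, which reads the stop codon, had an optimal peak with a signal of 115 pooled, 63.5 in replicate 3 and 45.7 in replicate 4, at ranks 1919, 2322 and 2141. The 3 lists placed its summit within 1 bp of each other, 42 bp upstream of eRF1 and 371 bp from a TSS of Rbbp5. Its GTPase partner eRF3 stood at rank 7048 (5408 and 8131 in the replicates), with SC35, a splicing factor gene, starting 20 bp from the summit.

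Initiation factors had an optimal peak in 14 of 44 genes (31.8%, Wilson interval 20.0 to 46.6) and elongation factors in 4 of 8 (50%, 21.5 to 78.5). The difference, eIF minus eEF, was -18.2 percentage points with a 95% Newcombe interval from -49.0 to 13.9. So few elongation factor genes could not separate the shares in either direction, and with only the most 5′ TSS of each gene the difference shrank to -5.68 points. In replicate 3 alone the counts were 13 and 4, and in replicate 4 alone 12 and 4. The classes lay further apart in the strength of their peaks. All 4 elongation factor peaks were among the strongest 801, as were 3 of the 14 initiation factor peaks (eIF6, eIF1 and eIF3c). These were 50% and 6.82% of all genes in each class, beside 4.35% of all protein-coding genes. The eIF6 and eIF1 summits lay nearer to another gene's TSS than to their own, at 93 against 122 bp and 49 against 332 bp. The median pooled rank, with genes without a peak placed last, was 3106.5 for elongation factors, 8162.5 for initiation factors and 23408 for all protein-coding genes. For elongation factors that median fell between a strong and a weak set of genes and moved from 1812 in replicate 3 to 4790 in replicate 4. The summits of the optimal peaks were a median of 15.5 bp from the TSS for elongation factors (3 to 25 bp) and 97 bp for initiation factors (22 to 450 bp). Over all protein-coding genes with an optimal peak at a start the median was 125 bp. The ranges of the 2 factor classes overlapped by a few bases only, but they rest on 4 and 14 genes and carry no test. Each distance is to the nearest of a gene's TSSs, and elongation factor genes had more of them. The mean was 1.88 TSSs per elongation factor gene and 1.41 per initiation factor gene, and its effect on the distances was not tested.

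**Figure D2:**
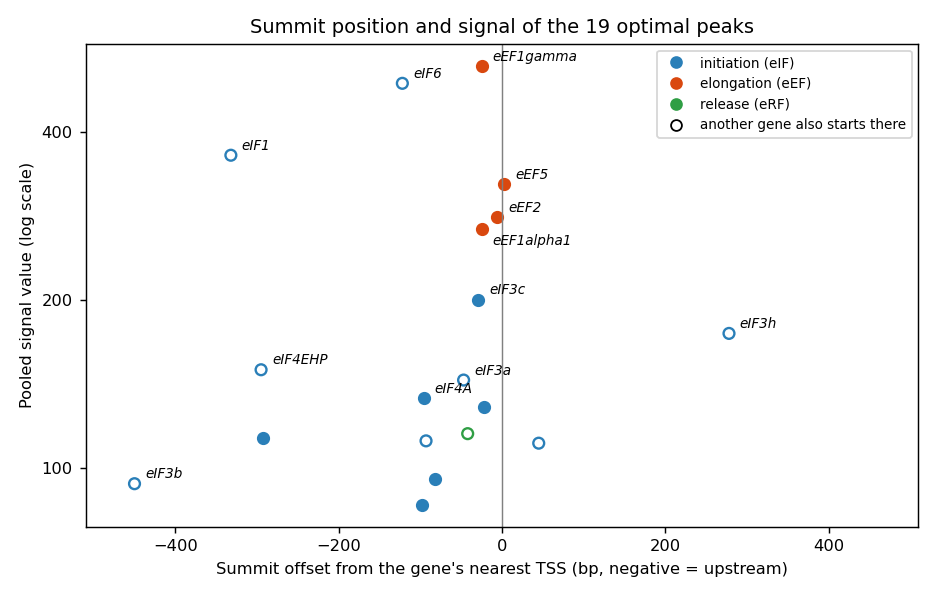
Position and signal of the 19 optimal peaks at translation factor starts. The horizontal axis is the summit's offset from the gene's nearest TSS in bp, negative upstream, and the vertical axis the pooled signal value on a log scale; open circles mark starts where another gene also starts within 500 bp of the summit. The 4 elongation factors lie within 25 bp of a TSS with no other gene there, and the initiation factors spread up to 450 bp away.

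Starts shared with other genes limit which of these peaks can be assigned to a translation factor. Of the 19 genes, 9 had another gene's TSS within 500 bp of the summit (47.4%), beside 59.9% of all protein-coding genes with an optimal peak at a start. These were 8 of the 14 initiation factors, none of the 4 elongation factors, and eRF1. For 6 of the 8, the other TSS was nearer to the summit or as near. A ribosomal protein gene was involved in a single case, RpL28 at eIF1, and 13 of the 14 initiation factor peaks had none at them. The same share over all protein-coding genes with an optimal peak was not counted, so this count marks nothing particular to the factors. When each peak was counted only for the nearest gene, 14 of the 54 factors were left, with 9 initiation factors and 4 elongation factors. The 5 factors that dropped out were eIF1, eIF3a, eIF3b, eIF4EHP and eIF6. Among the 23 factors with no TSS of another gene within 1000 bp, 5 had an optimal peak (3 of 20 initiation and 2 of 3 elongation factors), beside 7.63% of all such protein-coding genes.

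The strongest summits of replicate 3 and replicate 4 at the 19 genes lay a median of 23 bp apart. For 16 of them the distance was at most 50 bp, a limit chosen after the values were seen, and it was 72 bp at eIF3b, 136 bp at eIF4EHP and 144 bp at eIF2D. Upstream of the nearest own TSS lay 16 of the 19 summits, and for all protein-coding genes with an optimal peak the share was 82.9%. A peak of any strength was listed at 44 of the 54 factors in replicate 3, beside 54.9% of all protein-coding genes, and at 36 in replicate 4, beside 50.8%. Among the 35 factors without an optimal peak the counts were 25 and 17, and among all protein-coding genes without one the shares were 46.9% and 42.1%. On X, 6 of 7 factors were listed in replicate 3 and 1 of 7 in replicate 4, against 57.1% and 51.8% of all X protein-coding genes. Those weak peaks belonged to lists that the authors describe as peaks and background, and the −log10 q-value at eIF3g1, the weakest in the pooled list, was 0.165. The column's ceiling of 3.89 was reached at all 19 optimal peaks, and also at eIF3l and eIF2gamma outside the optimal list. No factor on X had an optimal peak, against 13.7% of all X protein-coding genes, and both X remarks were made after the values were seen.

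Closely named paralogs often differed in rank. The pairs compared, chosen after their values were seen, were eEF1alpha1 with eEF1alpha2, eIF3d1 with eIF3d2, eIF3f1 with eIF3f2, eIF3g1 with eIF3g2, eIF4H1 with eIF4H2 and eIF4G1 with eIF4G2. In 5 of the 6 pairs the gene numbered 1 had the better pooled rank or was the one listed. Those genes had pooled ranks of 412, 4578, 7399, 25462 and 8284. The exception was eIF4G2 at rank 2062, with eIF4G1 not in the pooled list. Near-identical sequence between copies can affect where reads are placed, and this was not tested.

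Core promoter letters were searched within 150 bp of every TSS, on both strands except for the TCT initiator, in a family of 5 motifs. The DRE (TATCGATA) was present at 14 of the 54 factor genes (25.9%), against 9.18% of all protein-coding genes. It stood at 6 of the 19 with an optimal peak (31.6%) and at 8 of the 35 without (22.9%), so both sets held it. It was at 14.6% of all protein-coding genes with an optimal peak and at 29.0% of ribosomal protein genes. The TCT initiator, searched as CTTTC or CTTTT on the gene's strand with its C within 5 bases of a TSS, was at 6 of the 54 (11.1%). These were eEF2, eEF5, eIF3m and eIF4A, all with optimal peaks, and eIF3f1 and eIF3i without. The shares were 5.13% for all protein-coding genes and 61.3% for ribosomal protein genes, so the 54 factors stood much closer to all genes than to ribosomal protein genes. Among genes with an optimal peak, it was at 21.1% of the 19 factors and 8.81% of all protein-coding genes. The E-box CACGTG was at 6 of the 54 factors (11.1%), 4 of the 19 with an optimal peak (21.1%) and 2 of the 35 without (5.71%). It was at 5.42% of all genes, 8.81% of all protein-coding genes with an optimal peak and 26.9% of ribosomal protein genes. Motif 1 was at 4 of the 54 (7.41%) and at 4.58% of all genes. Motif 7 was at 10 of the 54 (18.5%), near the share of all genes. It was at 8 of the 19 with an optimal peak (42.1%) and 2 of the 35 without (5.71%), against 26.6% of all genes with an optimal peak and 14.9% of all genes.

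At the summits the order of these motifs was different. Within 100 bp of the summit, the DRE lay in 6 of the 19 factor peaks (31.6%), against 8.77% of the 1493 optimal peaks that were the strongest at some protein-coding start. Motif 7 lay at 1 of the 19 summits (5.26%, eEF1gamma) and at 15.3% of the 1493, the E-box at 1 (eEF2) and at 3.62%, and Motif 1 at none and 3.15%. For 7 of the 8 peaks with Motif 7 near the gene's TSS, the motif was thus farther than 100 bp from the summit. No test was made of these shares, and the factor peaks are among the 1493.

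**Figure D3:**
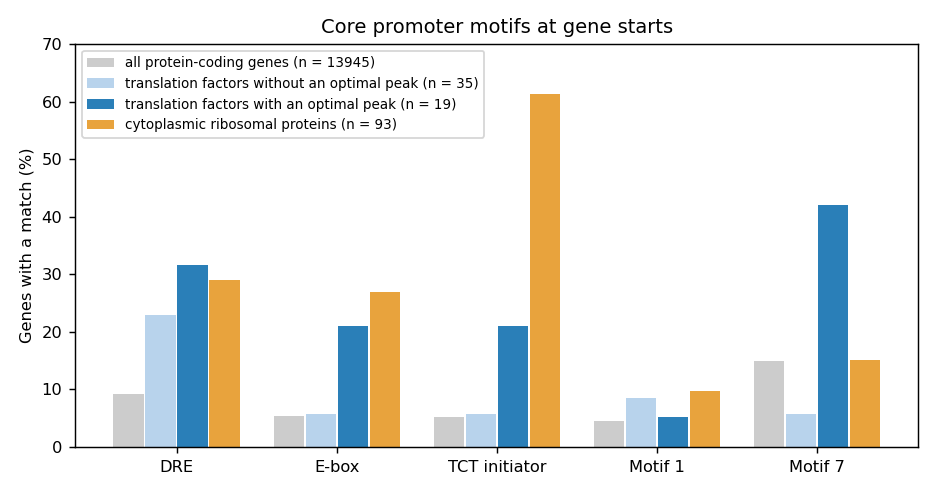
Share of genes with a match to each of 5 core promoter motifs within 150 bp of a TSS (TCT initiator: within 5 bases), in percent. Bars compare all protein-coding genes, translation factors without and with an optimal peak, and cytoplasmic ribosomal protein genes. The DRE is at 22.9% and 31.6% of factors without and with a peak, and the TCT initiator at 61.3% of ribosomal protein genes but 21.1% of factors with a peak.

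Other parts of the translation machinery were scored in the same way, with no test against the factors. Cytoplasmic ribosomal protein genes had 77 of 93 (82.8%, Wilson interval 73.9 to 89.1), with a median pooled rank of 531 and a median summit distance of 24 bp. Of the translation factors, the elongation factors with a peak came nearest to that distance. The aminoacyl-tRNA synthetase genes, which load tRNAs, had 7 of 18 (38.9%, 20.3 to 61.4). All 7 shared their start with another gene, beside 59.9% of all protein-coding genes with an optimal peak at a start. Genes that control translation had 6 of 23 (26.1%, 12.5 to 46.5), beside 15.1% of all genes. These 6 were larp, an RNA-binding protein gene of the LARP1 family, at rank 30, Thor, the 4E-BP that holds eIF4E back, at 1536, Gcn2, an eIF2alpha kinase, at 1839, S6k, the ribosomal protein S6 kinase, at 2559, HBS1, a ribosome rescue factor, at 2892, and pix, a ribosome recycling ATPase, at 3166. The other eIF2alpha kinase gene, PEK, stood outside the list at rank 3948 and pAbp, the poly(A)-binding protein gene, at 3915. Mitochondrial translation factors, which do the same work on the organelle's own ribosomes, had 0 of 9 (upper Wilson bound 29.9%), and the strongest of them, mEFTu2, had pooled rank 9071.

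**Figure D4:**
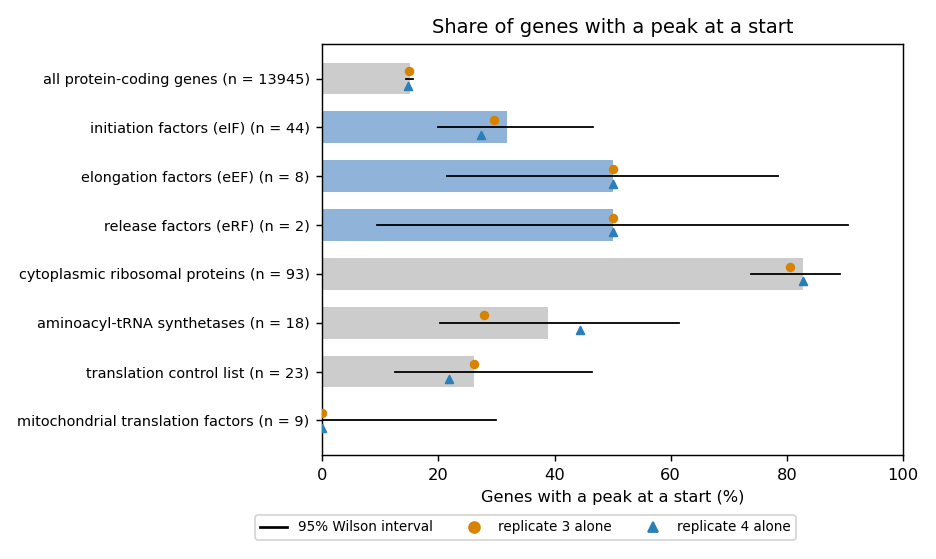
Share of genes with an optimal peak at a start, in percent, for translation factor classes and other gene lists; lines are 95% Wilson intervals, which cover the counting of genes only. Circles and triangles are the shares in the strongest 3207 peaks of replicate 3 and replicate 4 alone. Initiation factors (31.8%) and elongation factors (50%) lie above all protein-coding genes (15.1%) and below ribosomal protein genes (82.8%), with wide intervals for the 8 elongation and 2 release factors.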

How the data were processed

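ChIP-seq peaks were analysed from the deposited dm6 narrowPeak lists, namely a relaxed list for each of the 2 replicates, a relaxed list from their pooled alignments and the optimal IDR list made from these, per the deposited readme files. The signal value of each peak, the −log10 q-value and the summit offset are the authors' own numbers, and the signal only ranks peaks within a list. Ranks were compared between lists because the 3 relaxed lists each hold 30000 peaks. Not given in the sources used here were the aligner, the peak caller and the threshold of the IDR step; the depth is unknown, and the dm3 lists and the control were not used here.

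Summits were matched to all annotated TSSs within 500 bp with Ensembl release 115 on the assembled arms of chromosomes X, 2, 3 and 4, leaving out transposable elements, in Python 3.11.15. Coordinates are 1-based. Wilson intervals came from scipy 1.17.1 and figures from matplotlib 3.10.9. Sequence was read from the Release 6 RefSeq genome. The scoring step was tested on simulated peaks. Alternatives covered the TSS distance, each replicate alone, the strongest 1603 peaks, nearest genes, shared starts, the most 5′ TSS, peak overlap and the gene background.

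The factor genes, the gene lists, the motifs and the rule for named genes (every member) were chosen with earlier results of these data known. The translation control list holds 24 names, of which 23 matched a gene; Tor did not, since its older name leads to more than 1 gene.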

Additional observations from a re-analysis of the deposited data

How the results depend on the processing

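No paired analysis was possible because both samples belong to 1 group. An alternative was counted as moving a share or a median rank when it moved it by more than the SD between the replicates taken alone, and a count when it moved it by over 1.5 times. The count of factors with an optimal peak, 19, stayed within 1.5 times under the other settings (14 to 21) but fell to 12 with the strongest 1603 peaks and to 5 of 23 among genes with no other gene's TSS within 1000 bp. In those settings the share of initiation factors was 18.2% and 15%, the share of all protein-coding genes 7.95% and 7.63%, and the difference eIF minus eEF -31.8 and -51.7 points. With a TSS distance of 250 bp, the initiation factor share was 22.7%, that of all genes 12.4% and the difference -27.3 points. With 1000 bp they were 34.1%, 17.5% and -28.4 points, with elongation factors at 62.5%. Counting only the nearest gene gave 20.5%, 10.9% and -29.5 points, and peak overlap with the window gave 34.1%, 16.2% and -15.9 points. Only genes with a pooled relaxed peak gave 45.2% for initiation factors, 57.1% for elongation factors, 27.6% for all genes and -12.0 points. The most 5′ TSS alone gave 37.5% for elongation factors, 13.3% for all genes and -5.68 points. Elongation factors stood at 66.7% among genes without a neighbouring start. Leaving out a replicate gave 27.3% to 29.5% for initiation factors, 14.7% to 14.9% for all genes, -22.7 to -20.5 points for the difference and 8232 to 10075.5 for the initiation factors' median rank. That median was 13324.5 at 250 bp, 15097.5 with nearest genes only and 15165.5 without neighbouring starts, and the elongation factors' median was 366 without neighbouring starts and 5769.5 with the most 5′ TSS. The share of elongation factors exceeded that of initiation factors in every setting run, over the same few genes. The ribosomal protein overlap at eIF1 became 0 at 250 bp, with nearest genes only and without neighbouring starts. Without counts, how depth limits the weak peaks was not measured.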

Other observations

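Some translation factor genes held optimal peaks away from their starts. In eIF4EHP, a gene with long introns, peaks lay in introns 2514 bp and 9790 bp downstream of the TSS, at pooled ranks 2662 and 1589. The first of these lay 683 bp from a TSS of another gene, Syx1A. In eIF5B the intron peaks lay 21961 bp and 27666 bp downstream, at ranks 2012 and 2282, ahead of the peak at the eIF5B start itself, at rank 3171. All 4 were also listed in both replicates, at ranks from 1278 to 4266.

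At eIF3h a further optimal peak (rank 1830) stood 15 bp from the same TSS that lay 278 bp from the stronger summit. At eIF4A a further optimal peak stood beside another TSS (rank 2488, 109 bp from a downstream TSS). The eIF4A one was at rank 5635 in replicate 3 and 1309 in replicate 4, the same order of the replicates as at the first eIF4A peak. A peak just beyond the eEF5 gene, at rank 531, lay 6 bp from the TSS of the ribosomal protein gene RpL12. One beyond eIF2beta, at rank 1463, lay 168 bp from the TSS of Gcn5, a histone acetyltransferase gene.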
